A study of Capra hircus with 10 samples.

Results

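The imprinted cluster that runs from miR-379 to miR-410 and miR-656, among the largest arrays of miRNA genes of placental mammals, was examined in small RNA libraries of the goat mammary gland. Its members were found by name alone: a row of the count tables belonged to the cluster when its miRNA, without the species prefix, carried one of the 36 family numbers of the cluster. This gave 72 of the 1804 miRNA with a row, from 32 of the 36 families. No row was found for miR-654, miR-300, miR-889 or miR-453. Of the 72 rows, 48 had a goat name and 24 were named after the same miRNA of another species. They came from 43 precursors, 36 known and 7 predicted, and 29 of these precursors had a cluster row for each arm. Rows of these precursors under other names were not counted.

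The libraries came from 10 goats of the Alpine breed in full lactation (48 ± 2 days post-partum), with 1 library per goat. All goats ate the same hay-based ration with concentrate for 2 weeks. During the next 48 h, 4 goats went on eating it ad libitum (Control, libraries L01, L04, L06 and L10), and 6 goats were deprived of food but kept free access to water (FD, L02, L03, L05, L07, L08 and also L09). The tissue was whole mammary gland taken at slaughter, so each library mixes epithelial, stromal, vascular and blood cells.

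Counts per library summed to between 4495512 and 9842009, and libraries of the same diet differed in every pair by more than sampling noise (chi-square per degree of freedom from 102 to 815). The cluster took 295379 of 67923891 counts, or 0.435%. This share was lowest in FD library L03, at 0.317% (95% Wilson interval 0.313% to 0.321%), and highest in Control library L06, at 0.625% (0.618% to 0.632%). Such intervals cover counting error only. To normalize, the counts of a library were divided by its size factor (median of ratios). A miRNA was compared between diets if its normalized count exceeded 28 in at least 1 library, which held for 490 miRNA, among them 34 of the 72 of the cluster. Another 38 cluster miRNA were below this filter and were not tested. The miRNA that define mammary epithelium were present: 10 of the 11 rows of the miR-200, miR-141, miR-429 and miR-205 families were tested and none of these 10 was at 0 in any library.

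The cluster lies in the DLK1-DIO3 domain, where the protein-coding genes DLK1, RTL1 and DIO3 are read from the paternal chromosome and long non-coding RNA with the miRNA are read from the maternal one. The miRNA are cut out of a long shared transcript by Drosha and Dicer, each hairpin giving a mature strand from its 5p arm, its 3p arm or both. A mature miRNA finds target mRNA mainly through its seed, bases 2 to 8. The cluster is best known from brain, placenta and muscle. In sheep the domain carries the callipyge mutation, which enlarges muscle, and mice that lack the cluster adapt poorly to fasting just after birth.

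The sequences of the most abundant member, miR-411a-5p, and of the 7 cluster miRNA with an unadjusted p under 0.05 in the diet comparison are shown first, as the deposited tables give them, 5′ to 3′, with the seed in capitals.
miR-411a-5p: aTAGTAGAccgtatagcgtac
miR-494: tGAAACATacacgggaaacctct
miR-543-3p: aAACATTCgcggtgcacttct
miR-409-3p: gAATGTTGctcggtgaacccc
miR-541-5p: aAAGGATTctgctgtcggtcccact
miR-323b: cACAATACacggtcggcctct
miR-381: tATACAAGggcaagctctctgt
miR-758: tTTGTGACctggtccactaacc

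These 8 miRNA have 8 different seeds. Over the 72 cluster miRNA there were 63 distinct seeds, and 55 miRNA had a seed that no other cluster miRNA had. The first base was A in 37 of the 72 cluster miRNA, T in 21, G in 8 and C in 6. Another 8 seeds were each shared within the cluster, by 17 miRNA in all. With known miRNA from outside the cluster, only 3 of the 63 seeds were shared: that of miR-329a-3p and miR-329b-3p with miR-362-3p, that of miR-496-3p with miR-503-3p, and that of miR-1193-3p with miR-370-5p.

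The 17 miRNA that share a seed within the cluster are shown next, because several of them are so alike that reads cut short or misread could be counted on either copy.
miR-411a-3p: tATGTAACacggtccactaac
miR-379-3p: tATGTAACatggtccactaac
miR-376c-3p: aACATAGAggaaattccacgt
miR-376e-3p: aACATAGAggaaaatccacatt
miR-376a-3p: aTCATAGAggaaaatccacgt
miR-376d: aTCATAGAggaaaatccacat
miR-376b-3p: aTCATAGAggaaaatccat
miR-299a-3p: tATGTGGGacggtaaaccgct
miR-299b-3p: tATGTGGGacggtaaac
miR-299a-5p: tGGTTTACcgtcccacatacat
miR-299b-5p: cGGTTTACcgtcccacatac
miR-329a-3p: aACACACCtggttaaccttt
miR-329b-3p: aACACACCtggttaacctct
miR-487a-3p: aATCATACagggacatccagtt
miR-154a-3p: aATCATACacggttcacctact
miR-411b-5p: tGGTCGACcataaaacgtacgt
miR-412-5p: tGGTCGACcagttggaaagtaat

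With positions counted from 1 at the 5′ end and the miRNA named first taken as reference, miR-411a-3p and miR-379-3p differed by C10T over 21 bases, and miR-376c-3p and miR-376e-3p by T14A and G20A over 21 shared positions. Their family relative miR-376d differed from miR-376a-3p by A20G. Over the 19 bases of miR-376b-3p it differed from miR-376d by T19C. Counts within the miR-376 family are therefore uncertain between copies. The miR-376 hairpins are known from other mammals as sites of adenosine-to-inosine editing, which changes a base of the read. All 17 bases of miR-299b-3p were those of miR-299a-3p, miR-299a-5p and miR-299b-5p differed by T1C, and miR-329a-3p and miR-329b-3p by T19C. The authors predicted the miR-299a hairpin on the plus strand of chromosome 21 of CHIR_1.0, at chr21:62827954-62828006, with a miRDeep2 score of 1289.5 from 2520 reads. The miR-299b hairpin lies on the minus strand at chr21:62827952-62828003, with a score of 21.6 from 33 reads, so that both cover the same stretch of genome on opposite strands.

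Another run of letters recurred in the cluster behind the seed. The motif GGTNNAC, in which N is any base, was picked after the sequences had been read and was searched on the mature strand alone. It is shown in capitals in 6 of the miRNA that hold it.
miR-409-3p: gaatgttgctcGGTGAACccc
miR-758: tttgtgacctGGTCCACtaacc
miR-543-3p: aaacattcgcGGTGCACttct
miR-495-3p: aaacaaacatGGTGCACttctt
miR-655: ataatacatGGTTAACctctct
miR-134: tgtgactGGTTGACcagagggg

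It was found in 23 of the 72 cluster miRNA (31.9%), in 17 of 41 from the 3p arm and in 6 of 31 from the 5p arm. In the 3p miRNA that hold it, it began at base 10, 11 or 12. In the 5p miRNA it began at base 2, inside the seed, or in miR-134 at base 8. Of 467 known miRNA outside the cluster, 4 held it (0.857%): miR-493-3p from the same domain, miR-15b-5p, miR-1839 and miR-27b-5p. Of 1265 predicted miRNA, 12 held it (0.949%). Many of these hairpins are thought to descend from a common ancestor by tandem duplication.

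In the RefSeq gene table of assembly ARS1.2, 38 genes stood from MIR379 to MIR656 and all 38 were miRNA genes. Cluster rows were matched to 36 of them, and the other two were mir-3958 and mir-3959. The coordinates of that assembly are not those of the deposited tables, and only its gene order was used. On CHIR_1.0 the predicted hairpin of miR-541 was at chr21:62866100-62866165 (score 112.5, 220 reads), that of miR-539 at chr21:62848725-62848783 (134.2, 256 reads) and that of miR-668 at chr21:62857469-62857533 (1.4, 63 reads). The cluster row of the miR-539 hairpin, miR-539-5p, had only 2 counts, both in L08. The 3p product of this hairpin, with 88 counts, bears no family number and was left out of the cluster. miR-1193-3p rested on 2 reads at chr21:62834475-62834531, with a score of 0.3. Between the outermost of these hairpins the authors also predicted a hairpin at chr21:62843200-62843256 with the seed of human miR-654-3p, from 8 reads and with a score of 3.5, although no row bore that family number.

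A single miRNA carried most of the cluster's counts. miR-411a-5p took 78.6% of them and was the miRNA of rank 33 among all 1804. Its normalized count was 27764 in L01, 23269.6 in L04, 30899 in L06 and 19114 in L10 among Control goats, and ranged from 16031 to 29665 in FD goats, with a median of 21031. The diets overlapped widely (log2 fold change -0.27, standard error 0.183, unadjusted p = 0.166 by edgeR), and the fold change was -0.14 without Control library L06. miR-409-3p, which is known to restrain fibrinogen production in human liver cells, followed with a mean between 1000 and 10000. A further 13 tested miRNA had means between 100 and 1000, and 19 had means below 100. All levels are normalized counts, which also carry the preference of each miRNA for ligation and amplification, so ratios between miRNA are approximate.

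**Figure D1:**
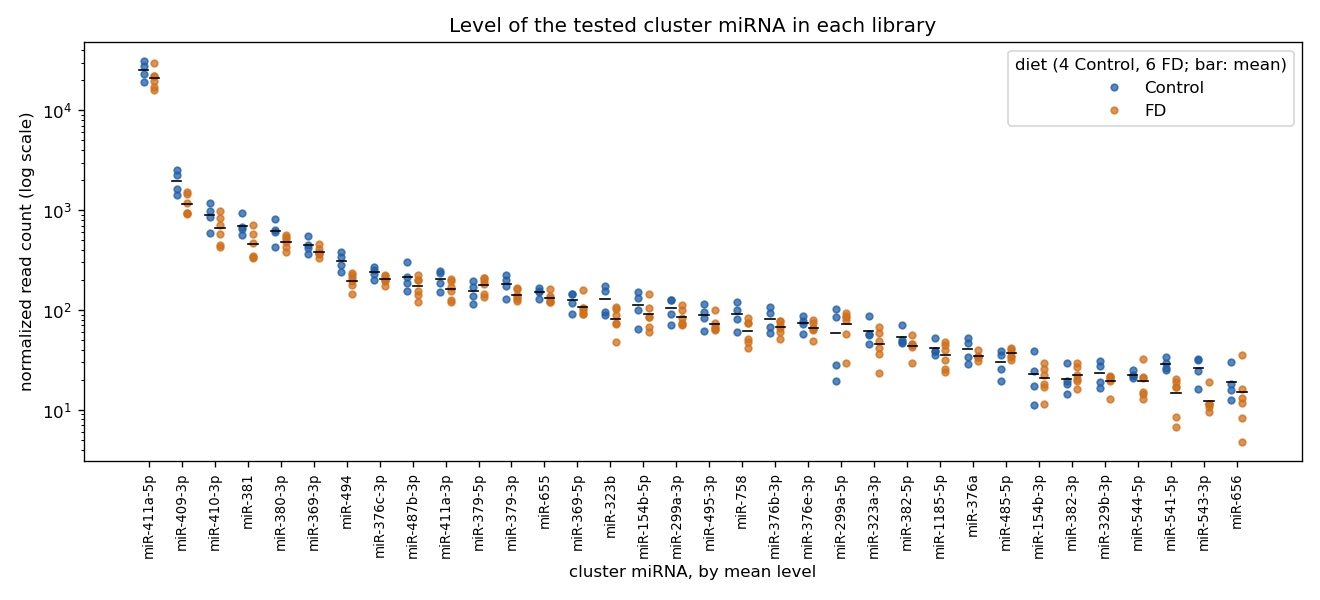
Normalized read count (log scale) of each of the 34 tested cluster miRNA in each library, ordered by mean level, with Control in blue (n = 4), FD in orange (n = 6) and bars for the mean of each diet. miR-411a-5p stands above 10000, miR-409-3p comes next, and the points of the diets overlap for all but miR-494 and miR-541-5p.

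The precursors differed in the arm they yielded. Of the 25 precursors with a cluster row for each arm and at least 100 counts over all libraries, 16 gave more 3p than 5p counts and 9 gave more 5p. Another 7 precursors with at least 100 counts had a cluster row for the 3p arm alone. At the extremes of those with both arms, mir-411a gave 99.2% 5p counts and mir-410 gave 0.0398%. Between them, mir-154b gave 82.0% 5p counts, mir-382 gave 68.6% and mir-369 gave 22.1%. The balance of mir-379, at 52.7% 5p counts, was the most even among the precursors with both arms and more than 1000 counts.

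In the comparison of diets, none of the 34 tested cluster miRNA passed the threshold of 0.1 on the adjusted p of edgeR's quasi-likelihood test, and neither did any of the 490 miRNA (0%). The smallest adjusted p in the cluster was 0.195, and limma-voom made 0 calls as well. The cluster miRNA lay mostly below 0, with 30 of 34 log2 fold changes of FD over Control negative, beside 245 of 490 among all tested miRNA (50%) and 215 of 456 outside the cluster. Their median was -0.30 and their range -1.11 to 0.30, where the median of all tested miRNA was -0.00. Scaling largely holds the median of all tested miRNA near 0. The cluster's median was -0.19 without Control library L01 and between -0.40 and -0.19 over the 10 fits that each left out 1 library. An unadjusted p under 0.05 was found for 7 cluster miRNA, all lower in FD goats, beside 77 of 490 in either direction (15.7%) and 40 of 490 lower in FD goats (8.16%). This number was 4 without Control library L06 and 11 without Control library L10. Over all 490 miRNA the number moved as well, from 45 to 96 over the fits that each left out 1 library. Since the members share a transcript and the same libraries, they are not independent, and no test over the list was made. In a bulk tissue, fewer cells that express the cluster and less miRNA in each cell cannot be told apart.

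**Figure D2:**
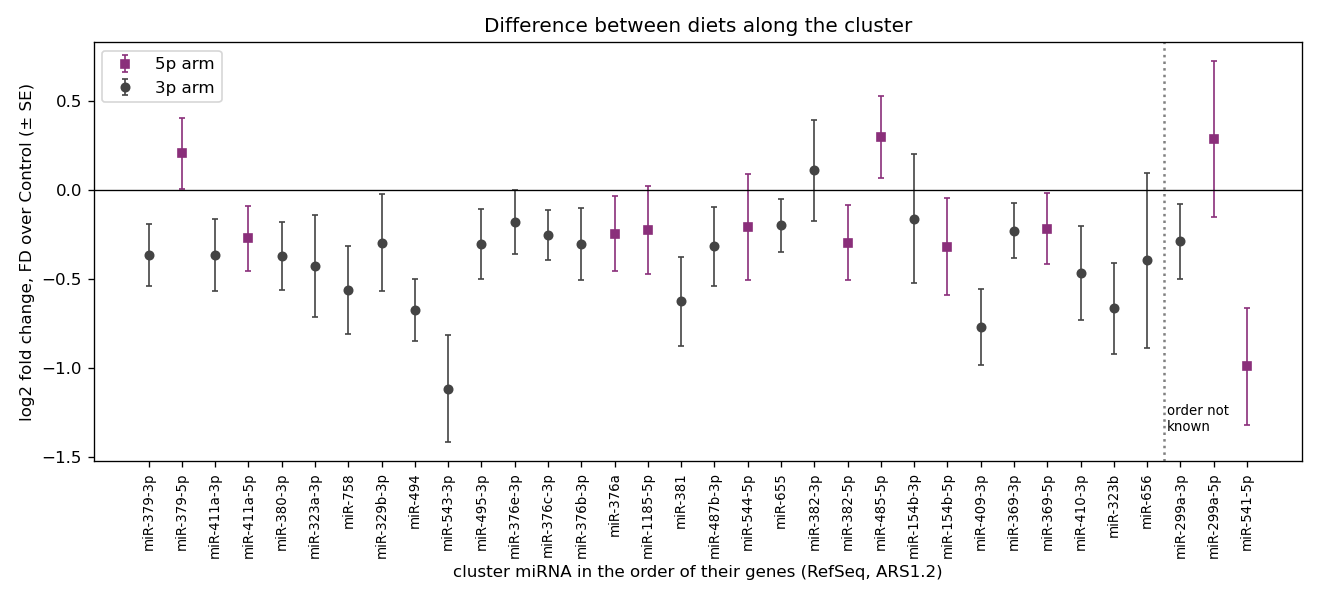
Log2 fold change of FD over Control with its standard error for the 34 tested cluster miRNA, in the order of their genes in RefSeq's ARS1.2 table, with the 3 miRNA of predicted hairpins at the right, whose place in that order is not given; squares mark 5p and circles 3p. Points below 0 are spread along the whole cluster, 30 of 34 in all, with miR-543-3p and miR-541-5p lowest.

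Fold changes below 0 were found along the whole cluster. Among tested miRNA of genes 1 to 13 in this order, 10 of 11 log2 fold changes were below 0 with a median of -0.36. For genes 14 to 26, 10 of 11 were below 0 with a median of -0.24, and for genes 27 to 38, 8 of 9 with a median of -0.32. By arm, 22 of 23 tested 3p miRNA were below 0 (median -0.36) and 8 of 11 5p miRNA (median -0.22). By abundance, 16 of the 17 more abundant miRNA were below 0 (median -0.32) and 14 of the 17 less abundant (median -0.29). The differences between these groups were not tested.

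miR-494 had the smallest p of the 34 tested cluster miRNA. Its normalized count was 379 in L01, 241 in L04, 282 in L06 and 341 in L10 among Control goats. In FD goats it ranged from 145 to 233 with a median of 202, so that every FD library lay below every Control library. The log2 fold change was -0.67 (standard error 0.176, unadjusted p = 0.0023 and adjusted p = 0.195 by edgeR). Such complete separation towards lower values in FD goats was found for 2 of the 34 cluster miRNA and for 5 of the 490 tested (1.02%).

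miR-541-5p, the other one, is a scarce member that comes from a predicted hairpin. Control goats had 26.3 in L01, 29.4 in L04, 33.6 in L06 and 25.0 in L10, and FD goats from 6.72 to 20.1 with a median of 16.9. The fold change was -0.99 on the log2 scale (standard error 0.329, unadjusted p = 0.0107 and adjusted p = 0.195 by edgeR). It rests on 7 to 30 counts per library, so its counting error is large.

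The largest fold change among the 34 tested cluster miRNA was that of miR-543-3p, another scarce member. Its normalized count was 31.8 in L01, 24.5 in L04, 32.2 in L06 and 16.3 in L10, against 9.57 to 18.8 in FD goats (median 11.4). Only FD library L05 was above the lowest Control library. The log2 fold change was -1.11 (standard error 0.299, unadjusted p = 0.0027 and adjusted p = 0.195 by edgeR).

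miR-409-3p was the most abundant of the members with a small p. Control values were 2514 in L01, 1638 in L04, 2254 in L06 and 1409 in L10, and FD values ran from 907 to 1529 with a median of 1063. Here 4 of 6 FD libraries were below every Control library, and L10 was the Control library nearest to them. The log2 fold change was -0.77 (standard error 0.214, unadjusted p = 0.0035 and adjusted p = 0.195 by edgeR). With DESeq2 in place of edgeR, miR-409-3p, miR-494 and miR-543-3p were the 3 cluster miRNA that passed, with adjusted p of 0.066, 0.066 and 0.070, beside 27 of all 490 miRNA (5.51%) and 14 lower in FD goats (2.86%). miR-541-5p was just above the threshold, with an adjusted p of 0.104 by DESeq2. A call in this cluster thus depended on the tool.

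Between these and the rest stood miR-323b, miR-381 and miR-758. miR-323b had 156 in L01, 89.3 in L04, 172 in L06 and 96.0 in L10, against 47.9 to 106 in FD goats (median 81.9). miR-381 had 677, 645, 927 and 558 in the same Control libraries and 334 to 709 in FD goats (median 406). For both, 4 of 6 FD libraries were below every Control library, and the highest FD library was L09.

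miR-758, which represses the cholesterol exporter ABCA1 in human and mouse cells, had 101, 81.4, 119 and 59.5 in L01, L04, L06 and L10. In FD goats it ranged from 41.3 to 82.2 with a median of 62.7. The log2 fold changes of miR-323b, miR-381 and miR-758 were -0.66, -0.62 and -0.56, with unadjusted p of 0.022, 0.026 and 0.044 and adjusted p of 0.269, 0.269 and 0.306 by edgeR. The diets overlapped for these 3 miRNA.

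The remaining abundant members lay below 0 by less. miR-410-3p had 981, 859, 1174 and 589.6 in L01, L04, L06 and L10 and from 424 to 977 in FD goats (median 643). miR-380-3p had 811, 603, 639 and 425 in these Control libraries and from 377 to 560.3 in FD goats (median 502). The Control library L10 was the lowest Control library for both and lay within the FD range.

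miR-369-3p, known to bind the AU-rich element of TNF mRNA in human cells, had 545 in L01, 417 in L04, 447 in L06 and 366 in L10, and from 331 to 454 in FD goats (median 372). miR-376c-3p had 272, 199, 251 and 231 in these Control libraries and from 174 to 223 in FD goats (median 202). miR-487b-3p had 300.0, 154, 214 and 188, against 121 to 223 (median 177). These members differed in which Control library was lowest, L10 for miR-369-3p and L04 for miR-376c-3p and miR-487b-3p.

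The log2 fold changes of these 5 miRNA were -0.46 for miR-410-3p, -0.37 for miR-380-3p, -0.23 for miR-369-3p, -0.25 for miR-376c-3p and -0.31 for miR-487b-3p. Leaving out 1 library brought some of them nearer to 0: without L01, miR-380-3p was at -0.23, miR-369-3p at -0.12 and miR-487b-3p at -0.12, and without L06, miR-410-3p was at -0.29. None of the 5 had an unadjusted p under 0.05 with all libraries. Their adjusted p lay between 0.379 and 0.457 (edgeR).

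miR-411a-3p and miR-379-3p share a seed and differ at a single base. miR-411a-3p had 247, 186, 237 and 152 in Control libraries L01, L04, L06 and L10 and from 121 to 203 in FD goats (median 162). miR-379-3p had 225, 175, 199 and 129 in the same libraries and from 124 to 164 in FD goats (median 138). Both had a log2 fold change of -0.36, with adjusted p of 0.400 and 0.323 by edgeR, and both were highest in L01 and lowest in L08.

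The members above 0 were miR-485-5p (0.30), miR-299a-5p (0.29), miR-379-5p (0.21) and miR-382-3p (0.11), all with an adjusted p of at least 0.478. miR-485-5p, known in neurons as a brake on synaptic vesicle protein SV2A, had 38.7, 19.6, 35.0 and 25.9 in L01, L04, L06 and L10 and from 31.7 to 41.6 in FD goats (median 36.1). For miR-382-3p the direction turned without L10 (-0.05), and for miR-299a-5p it ended at 0 without L04 (-0.00).

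Many cluster miRNA were high and low in the same libraries. For each miRNA the log2(normalized count + 1) in a library was set against its mean over the 10 libraries, and the median of this deviation over the 34 tested cluster miRNA was taken. Among Control goats it was 0.50 in L01, 0.10 in L04, 0.26 in L06 and -0.08 in L10 (mean 0.20 ± 0.247 SD, n = 4). Among FD goats it ran from -0.31 in L08 to 0.08 in L09 with a median of -0.10 (mean -0.12 ± 0.169 SD, n = 6). Control library L10 was thus lower than FD libraries L02, L07 and L09, and the diets overlapped.

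**Figure D3:**
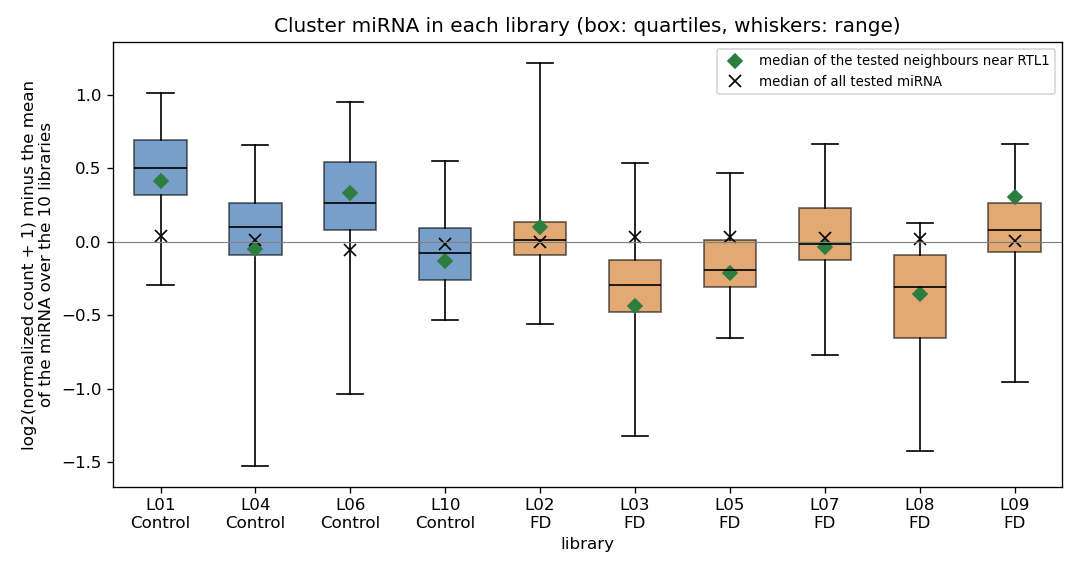
Deviation of the 34 tested cluster miRNA from their own mean over the 10 libraries, in log2 units, as boxes (quartiles) with whiskers (range) for each library, with diamonds for the median of the 8 tested neighbours near RTL1 and crosses for the median of all tested miRNA. The Control boxes of L01 (median 0.50) and L06 (0.26) stand highest and the FD boxes of L03 (-0.30) and L08 (-0.31) lowest. The crosses stay near 0, where the scaling largely holds them.

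L01 was the highest library for 17 of the 34 cluster miRNA (50.0%) and L06 for 11 (32.4%), against 13.6% and 9.65% of the 456 other tested miRNA. L08 was the lowest library for 14 (41.2%) and L03 for 7 (20.6%), against 16% and 7.02% of the others. By total counts, L06 (4495512) and L01 (4586700) were the shallowest libraries and L08 (9842009) was the deepest, with L03 in between (6781709). The part of depth in this order was not tested. The median deviation of all tested miRNA stayed between -0.06 and 0.04 in every library. Division by size factors centres the typical miRNA, so this value was largely set by the scaling.

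Summed over all 72 rows, the cluster had 32767 ± 6537 normalized counts in Control goats (SD, n = 4) and 26704 ± 5823 in FD goats (SD, n = 6). The ratio of FD to Control was 0.815, or -0.30 on the log2 scale, and -0.20 without Control library L06. The standard deviations were about as large as the difference. Without miR-411a-5p, the sums were 7505 ± 1483 and 5496 ± 1014, a log2 ratio of -0.45. These sums were not tested.

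The miRNA genes near RTL1 in the same domain give a neighbouring group of 14 rows, 8 of them tested. They include miR-127 and miR-136, which lie antisense to RTL1 and can cut its mRNA. Of the 8, 7 were below 0 with a median of -0.22, and none passed an adjusted p of 0.1. miR-127-3p, whose level was above that of every cluster miRNA, had 43897, 39126, 52843 and 36691 in L01, L04, L06 and L10 and from 31044 to 45793 in FD goats (median 39068), a log2 fold change of -0.16. The smallest p of the group belonged to miR-493-3p (-0.60, unadjusted p = 0.036) and miR-665 (-0.49, unadjusted p = 0.038), and edgeR's adjusted p was 0.30 for both.

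These neighbours had a similar order of libraries. Their median deviation was 0.41 in L01 and 0.33 in L06, and -0.44 in L03 and -0.36 in L08. In L09 it was 0.30, above the cluster's 0.08. Their summed normalized counts were 46530.4 ± 7680.3 in Control and 41937 ± 5243 in FD goats, a log2 ratio of -0.15.

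The genes mir-3958 and mir-3959 stand inside the cluster but bear numbers outside the rule, and were looked at after their values were known. miR-3958-3p had a log2 fold change of -0.42 (unadjusted p = 0.080), miR-3959-3p of -0.44 (unadjusted p = 0.086) and miR-3959-5p of -0.15 in the same edgeR fit. All 3 lay below 0, like most of the cluster.

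The miRNA that mark the cell types of the gland are given beside these values. Of 10 tested epithelial miRNA, 8 were below 0 (median of the 10, -0.20). The 2 above 0 were miR-205-5p (means of 13437 in Control and 17977 in FD goats, log2 fold change 0.41) and miR-205-3p (0.20). The summed normalized counts of the epithelial miRNA were 221821 to 245827 in Control and 173950 to 243961 in FD libraries. Of 8 stromal miRNA, named miR-143, miR-145, miR-199 or miR-214, 6 were above 0 (median 0.28), with sums of 690407 to 928572 in Control and 579433 to 1136233 in FD libraries. Most of the stromal sum was miR-143-3p (means of 722366 in Control and 790695 in FD goats, log2 fold change 0.11). Most of the epithelial sum was miR-141 (means of 128297 and 120582, log2 fold change -0.11).

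Both arms of endothelial miR-126 were above 0 (sums of 117544 to 144955 in Control and 136542 to 197735 in FD libraries), and so were both arms of myeloid miR-223 (168 to 423 and 346 to 925). All 3 tested erythroid miRNA were above 0 as well (3749.7 to 6061 and 5961 to 8756). An unadjusted p under 0.05 (edgeR) was found for 2 epithelial (miR-200b and miR-429), 2 endothelial, 2 myeloid and 1 erythroid miRNA. Among all 490 tested miRNA, 77 had such a p (15.7%). None of the tested markers was at 0 in any library, and edgeR called none of them. With DESeq2, 3 of the 25 tested markers passed an adjusted p of 0.1, all higher in FD goats: miR-223-3p (log2 fold change 1.17, adjusted p = 0.066), miR-126-3p (0.39, adjusted p = 0.069) and miR-223-5p (1.01, adjusted p = 0.092). Of all 490 miRNA, 27 passed with DESeq2 (5.51%), 13 of them higher in FD goats. The part of cell composition in the cluster's lower values was not tested.

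Both arms were tested for 6 cluster precursors. For these, the log2 ratio of (5p + 1) to (3p + 1) normalized counts was compared between diets by exact permutation of the diet labels (210 arrangements, two-sided), which allows no p below 0.00476. None of the 114 precursors with both arms tested passed an adjusted p of 0.1 (0%), while 9 of the 114 had an unadjusted p under 0.05 (7.89%). In the cluster this was mir-379 alone.

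**Figure D4:**
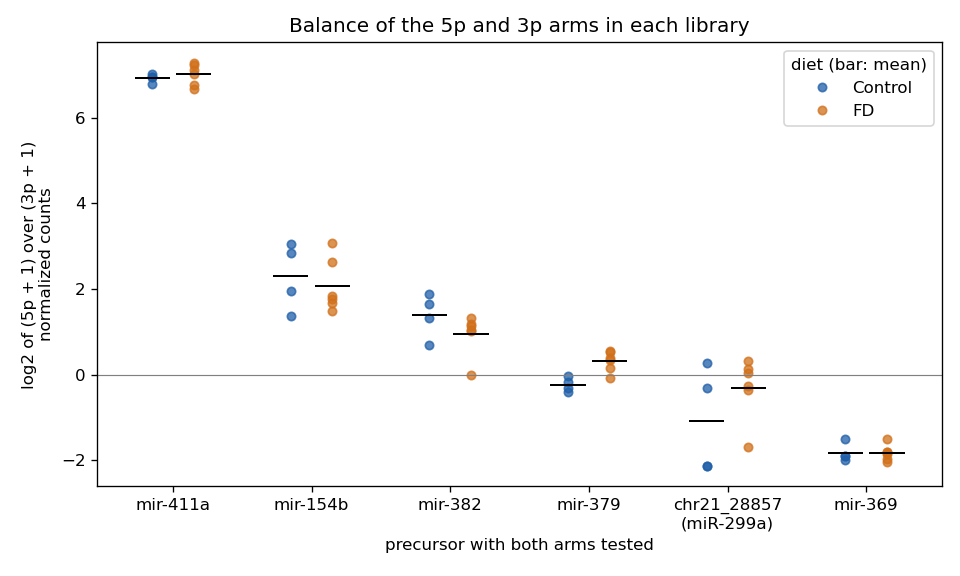
Log2 of the ratio of (5p + 1) to (3p + 1) normalized counts in each library for the 6 cluster precursors with both arms tested, with Control in blue, FD in orange and bars for means. mir-379 shows FD points mostly above the Control points (means 0.31 and -0.24), and the miR-299a hairpin shows 3 low points, L04, L06 and L09, near or below -1.70.

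The ratio of mir-379, known in liver as a glucocorticoid-responsive regulator of lipid secretion, was -0.42 in L01, -0.32 in L04, -0.04 in L06 and -0.17 in L10 among Control goats, and ran from -0.07 to 0.54 in FD goats. The mean was -0.24 ± 0.166 in Control and 0.31 ± 0.233 in FD goats, a difference of 0.55 (exact permutation p = 0.0143, adjusted p = 0.543). The log2 fold changes of its arms lay on opposite sides of 0, at 0.21 for miR-379-5p and -0.36 for miR-379-3p, neither past the threshold. The lowest FD value, in L05, was below the highest Control value, in L06. Without any 1 library the difference stayed between 0.49 and 0.63. Since miR-379-3p differs from miR-411a-3p by C10T alone, misread reads could be counted on either copy, which limits this ratio. The ratios of mir-411a (0.09), mir-369 (0.00), mir-154b (-0.22) and mir-382 (-0.44) differed between diets by less than their spread, with exact permutation p of at least 0.2095.

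The arms of the miR-299a hairpin did not move together. miR-299a-5p had a normalized count of 19.6 in L04 and 28 in L06, but 102 in L01 and 85.5 in L10 among Control goats. In FD goats it was 29.8 in L09 and reached 93.6 in L07, with a median of 82.7. miR-299a-3p was steadier, with 127.2, 90.3, 126 and 71.1 in L01, L04, L06 and L10 and 70.4 to 113 in FD goats.

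The 5p share of this hairpin was thus 17.9% in L04 (20 of 112 counts, 95% Wilson interval 11.9% to 26%), 18.2% in L06 (20 of 110, 12.1% to 26.4%) and 23.1% in L09 (34 of 147, 17% to 30.6%). In the other 7 libraries it was between 43.8% and 55.4%. The 3 low libraries belong to both diets, and the diets did not differ in this ratio beyond the spread (difference 0.77, exact permutation p = 0.262). The overlap of the hairpins on opposite strands and the single differing base of miR-299b-5p limit how firmly these counts can be placed.

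The 38 cluster miRNA below the filter had between 1 and 156 counts over all libraries, and 13 of them had under 10. Just under the filter was miR-485-3p, with a highest normalized count of 23.8, and just above it miR-382-3p, with 29.4. No row was tested for 8 families, miR-134, miR-377, miR-412, miR-496, miR-539, miR-668, miR-1193 and miR-1197. miR-134, which restrains Limk1 in the dendrites of neurons, was counted in every library but had only 62 counts in all.

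In every library 50 of the 72 cluster miRNA had at least 1 count, and a single library held between 58 (L04) and 65 (L07). These numbers move with depth. When edgeR was run with no filter on all 1804 miRNA, 3 of these 38 had an unadjusted p under 0.05, beside 178 of all 1804 (9.87%), and none passed an adjusted p of 0.1. All 3 lay below 0: miR-487a-3p (log2 fold change -1.56, adjusted p = 0.134), miR-299b-5p (-1.85, adjusted p = 0.432) and miR-485-3p (-0.77, adjusted p = 0.453). Named after its values were seen, miR-487a-3p had 4 counts in L01, 16 in L04, 13 in L06 and 9 in L10 among Control goats and 4 to 6 counts in FD goats. Its normalized count was 12.02 ± 5.93 in Control (SD, n = 4) and 4.11 ± 1.31 in FD goats (SD, n = 6), and 5 of 6 FD libraries were below every Control library. miR-299b-5p had only 18 counts in all.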

How the data were processed

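The libraries were made from total RNA of about 150 mg of mammary gland and sequenced on an Illumina instrument. Adapters were trimmed by the authors (Cutadapt), reads of 17 to 28 nt were mapped to CHIR_1.0, and they predicted precursors with miRDeep2 and counted reads on known (miRBase v21) and predicted mature miRNA with its quantifier module. The counts deposited by the authors are these raw read numbers. The score deposited by the authors is the miRDeep2 score of a predicted precursor over all libraries together. Their normalized columns were not used, nor were the mRNA and RT-qPCR data. No molecular identifiers are described, so amplified copies were not removed.

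Counts were divided by DESeq2 size factors (0.714 to 1.67) for levels. The test between diets was the quasi-likelihood test of edgeR (TMM, two-sided, no covariates) on miRNA with a highest normalized count above 28, with Benjamini-Hochberg adjustment over all 490 and a threshold of 0.1. The standard error is the size of the log2 fold change divided by the square root of F. Arms were compared with a pseudocount of 1 and adjustment over 114 precursors. Scripts were tested on simulated data. The alternatives were DESeq2, limma-voom, 3 scalings, 3 filters, other pseudocounts and each library left out with the tested miRNA kept.

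The cluster, the neighbours and the marker lists were chosen with earlier results of these data known. Each Control library's value, with the range and median over FD libraries, is given for the 10 most abundant cluster miRNA and the 10 with the smallest p, and any other tested cluster miRNA could be named. Markers were miR-200, miR-141, miR-429 and miR-205 (epithelial), miR-199, miR-214, miR-143 and miR-145 (stromal), miR-126 (endothelial), miR-223 and miR-142 (myeloid), and miR-451, miR-144 and miR-486 (erythroid), of which miR-142 gave no row. miR-409-3p was placed by its name, since the arm column of the tables gives 5p. Tested cluster names without an arm (miR-494, miR-381, miR-323b, miR-758, miR-655 and miR-656) are 3p in that column, and miR-376a is 5p. Untested ones are 3p too (miR-377, miR-376d, miR-541, miR-544a and sheep miR-323b), except miR-134, which is 5p. Gene order came from RefSeq (ARS1.2). Software was edgeR 4.0.16, limma 3.58.1 and DESeq2 1.42.0 in R 4.3.3, and matplotlib 3.10.9, pandas 2.3.3, scipy 1.17.1 and numpy 2.4.6 in Python 3.11.15.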

Additional observations from a re-analysis of the deposited data

Results flagged for a closer look

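In 70 groups (the 34 tested cluster miRNA and the summed cluster counts, in each diet), 5 had a library that stood apart from the others of its diet by Dixon's criterion, and chance gives about 1 in 20. miR-369-5p had 158 normalized counts in FD library L09, where the other FD libraries had 90.6 to 106. miR-543-3p had 18.8 in FD library L05, against 9.57 to 11.5. miR-382-5p had 70.03 in Control library L06, against 47.0 to 49.8. miR-495-3p had 99.8 in FD library L03, against 63.2 to 74.1. miR-329b-3p had 12.9 in FD library L07, below the 19.2 to 21.9 of the others. The 5 values fell in 5 different libraries.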

How the results depend on the processing

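With DESeq2, 27 of 490 miRNA passed (13 higher, 14 lower), 3 of them in the cluster (miR-409-3p at -0.75, miR-543-3p at -1.10 and miR-494 at -0.66). With no filter 5 of 1804 passed with edgeR, and with known miRNA alone 1 of 351, none of them in the cluster. Without a filter 51 of 72 cluster miRNA were below 0 and 11 had an unadjusted p under 0.05, beside 178 of all 1804 with such a p (9.87%). With a filter above 100 normalized counts 19 of 21 were below 0. The median log2 fold change of all miRNA compared was 0.02 without a filter and -0.02 with the filter above 100. Upper-quartile scaling moved the median of all tested miRNA to -0.07. It gave 11 of the 34 cluster miRNA with an unadjusted p under 0.05, beside 77 of all 490. With 1 library left out, the number of cluster miRNA with such a p ran from 4 to 11, and those below 0 from 29 to 31. The cluster's median ran from -0.40 to -0.19, the log2 ratio of summed counts from -0.41 to -0.20, and calls stayed at 0. Over all 490 miRNA the number with such a p, 77 with all libraries, ran from 45 to 96. It was 45 without L01, 47 without L06 and 50 without L08. The direction turned for miR-154b-3p without L01 (0.17; range -0.36 to 0.17), for miR-299a-5p without L04 (-0.0047; range up to 0.66) and for miR-382-3p without L10 (-0.052; range up to 0.36). The cause was not tested. Among single cluster miRNA, all but 3 of 259 values under the other settings, and all but 3 of 340 with a library left out, kept their direction and their side of the threshold, the exceptions being those named. No paired analysis was possible because each goat gave 1 library, under 1 diet. Counting depth limits the 19 tested members with means below 100 and all 38 untested ones.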
